A study of Mus musculus with 27 samples.

Results

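Expression of 9 listed genes of immune checkpoints and T cell costimulation was examined in mouse lung: Cd274, Pdcd1lg2, Cd80, Cd86, Icosl, Havcr2, Lgals9, Pvr and Ido1. The genes were taken by symbol from a table of 16024 genes, and 8 of the 9 had a row. Pvr was not analysed here. Of the 8 genes, 7 reached the level needed for testing in at least 1 preparation, and Ido1 did not reach it in any.

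A T cell that meets its antigen also reads ligands of the B7 family on the cell that presents it. CD80 and CD86 costimulate through CD28 and inhibit through CTLA-4, ICOS ligand acts on ICOS, and PD-L1 (Cd274) and PD-L2 (Pdcd1lg2) inhibit through PD-1. TIM-3 (Havcr2) is a receptor carried by exhausted T cells and by myeloid cells, galectin-9 (Lgals9) is a sugar-binding protein that binds it, and IDO1 breaks down tryptophan. In lung tumours, macrophages, neutrophils and cancer cells can all carry such ligands, and antibodies against PD-1 and PD-L1 are used to treat lung cancer.

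RNA was sequenced from 27 libraries of C57BL/6 mouse lung in 10 groups, which are 5 cell preparations, each of lungs with tumours and of wild-type lungs (WT). The tumours were those of HKP1, a mouse lung cancer cell line given through the tail vein, and these lungs were taken at day 20 to 25, while WT lungs had no tumour. The preparations were macrophages (tumour n = 3, WT n = 2), CD11b+Ly6C+ monocytes (n = 2 and 2), CD11b+Ly6G+ neutrophils (n = 3 and 3), Epcam+CD11b-CD11c- epithelial cells (n = 3 and 3) and unsorted total lung cells (n = 3 and 3). Macrophages were CD11c+CD11b+ in tumour lung and CD11c+CD11b- in WT lung, so every macrophage comparison of tumour with WT also compares these gates. The age and sex of the mice and the animal behind each library are not given in the labels, so p-values measure the spread between these libraries, which may be partly technical. All tumours came from 1 injected line, and the labels do not say how many epithelial cells of tumour lung were HKP1 cells.

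Cd274 and Pdcd1lg2 are neighbours on chromosome 19 (GENCODE M21, GRCm38), on the plus strand, at bases 29367455 to 29388095 and 29410919 to 29471161, with 22823 bases between them. Cd80 lies on chromosome 16 at 38455561 to 38496335 (plus) and Cd86 on the same chromosome at 36603869 to 36666081 (minus), 1789479 bases apart. Icosl is on chromosome 10 at 78069302 to 78083913 (plus), Havcr2 on chromosome 11 at 46454935 to 46481255 (plus), Lgals9 on chromosome 11 at 78962974 to 78984946 (minus) and Ido1 on chromosome 8 at 24584136 to 24597009 (minus). Values refer to the whole gene. Antisense transcripts overlap Cd274 (AC119228.1) and Pdcd1lg2 (A930007I19Rik), and the library kit does not mark strand, so reads of either pair cannot be told apart.

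Promoter sequences (RefSeq, GRCm38.p6) were found for 6 of the 8 genes, as the 250 bases before the start of the gene. Cd86 and Ido1 had none. The first 2 sequences printed are those of the neighbouring pair, whose levels ran most alike among all pairs of the genes described here. The third is that of Lgals9, whose levels ran least like the others and whose window held the only motif match. Capitals mark that match, which lies 55 to 46 bases before the start. RefSeq and GENCODE place some starts differently, so the windows of Lgals9 and Icosl lie partly, and that of Cd80 wholly, within the gene bounds given above.
Cd274, chr19:29367188-29367437, plus strand: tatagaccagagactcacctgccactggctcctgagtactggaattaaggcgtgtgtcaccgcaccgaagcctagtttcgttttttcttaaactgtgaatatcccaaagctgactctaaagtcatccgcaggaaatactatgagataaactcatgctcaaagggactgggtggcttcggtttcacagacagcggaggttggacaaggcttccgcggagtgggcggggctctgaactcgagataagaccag
Pdcd1lg2, chr19:29410669-29410918, plus strand: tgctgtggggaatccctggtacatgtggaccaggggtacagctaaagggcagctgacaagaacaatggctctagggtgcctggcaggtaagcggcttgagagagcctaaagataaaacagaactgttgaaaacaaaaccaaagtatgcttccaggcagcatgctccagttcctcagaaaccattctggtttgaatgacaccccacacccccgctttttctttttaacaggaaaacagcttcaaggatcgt
Lgals9, chr11:78984925-78985174, minus strand: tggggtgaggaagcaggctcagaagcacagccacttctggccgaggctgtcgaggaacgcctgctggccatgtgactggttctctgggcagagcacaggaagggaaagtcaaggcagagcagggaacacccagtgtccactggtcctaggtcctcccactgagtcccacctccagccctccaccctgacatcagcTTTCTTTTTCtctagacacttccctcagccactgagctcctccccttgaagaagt
The windows of the 6 genes were searched on both strands for the core of the interferon-stimulated response element (GAAANNGAAA), the interferon gamma activated site (TTCNNNGAA) and the TATA box (TATAAA). Among 32851 promoter windows of this length, 2.98% held the first, 7.02% the second and 12.4% the third. Only Lgals9 held a match, TTTCTTTTTC, which is GAAANNGAAA read from the opposite strand. Its window held 58.4% G and C, against 50.4% for Cd274, 48.4% for Pdcd1lg2 and a median of 52.4% over all windows.

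The libraries had 8560 to 11420 genes at 1 FPKM or more (fragments per kilobase of transcript, scaled to the mapped fragments of the library), fewest in neutrophils. Relative depth, read from the spacing of low values, was 0.624 to 1.58 times that of tumour macrophage replicate 1, and these estimates are rough. Libraries of a group correlated at 0.964 to 0.996. Itgam (CD11b) followed the macrophage gates, at 127 ± 12.97 FPKM (SD, n = 3) in tumour and 1.30 ± 0.144 (n = 2) in WT macrophages. Epcam was 91.1 ± 6.24 in tumour and 87.1 ± 8.70 in WT epithelial cells (n = 3 each). Epcam was also at 45.3 ± 3.27 FPKM in WT macrophages, against 4.50 ± 2.22 in tumour macrophages. Of the 12 lung epithelial markers, Sftpc and Sftpb were listed at 0 in every epithelial library, which can be a failed estimate. Tumour and WT preparations also differed in markers of other cell types, many of them given with the results in each preparation.

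In macrophages, Cd274, Cd80, Cd86 and Lgals9 were higher in tumour than in WT lung, and no gene of the group was lower. In neutrophils, Cd80, Icosl and Havcr2 were higher and Lgals9 was lower, while Cd274, the member with the highest level there, did not differ beyond the spread. In epithelial cells, Lgals9 and Havcr2 were higher. In total lung cells, 6 genes were higher and Icosl was lower. In monocytes none of the 7 genes tested passed.

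These calls rest on limma, fitted on log2(FPKM + 1) over all genes that reached 1 FPKM in 2 or more libraries of the comparison, with an adjusted p under 0.05 (Benjamini-Hochberg over all genes tested). In macrophages 4 of 7 genes tested passed, beside 37.9% of all genes tested. In neutrophils 4 of 7 passed, beside 59.1% of all genes. In epithelial cells 2 of 5 passed, beside 23.8%, and in total lung cells 7 of 7, beside 42.5%. In monocytes 0 of 7 passed, beside 0% of all genes: limma called 0 of 10366, although 1559 had an unadjusted p under 0.05. With 5 to 7 genes a preparation, nothing particular to these genes as a group is read from the counts. The median difference of all genes lay between -0.01 and 0.11 in the 5 comparisons.

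**Figure D1:**
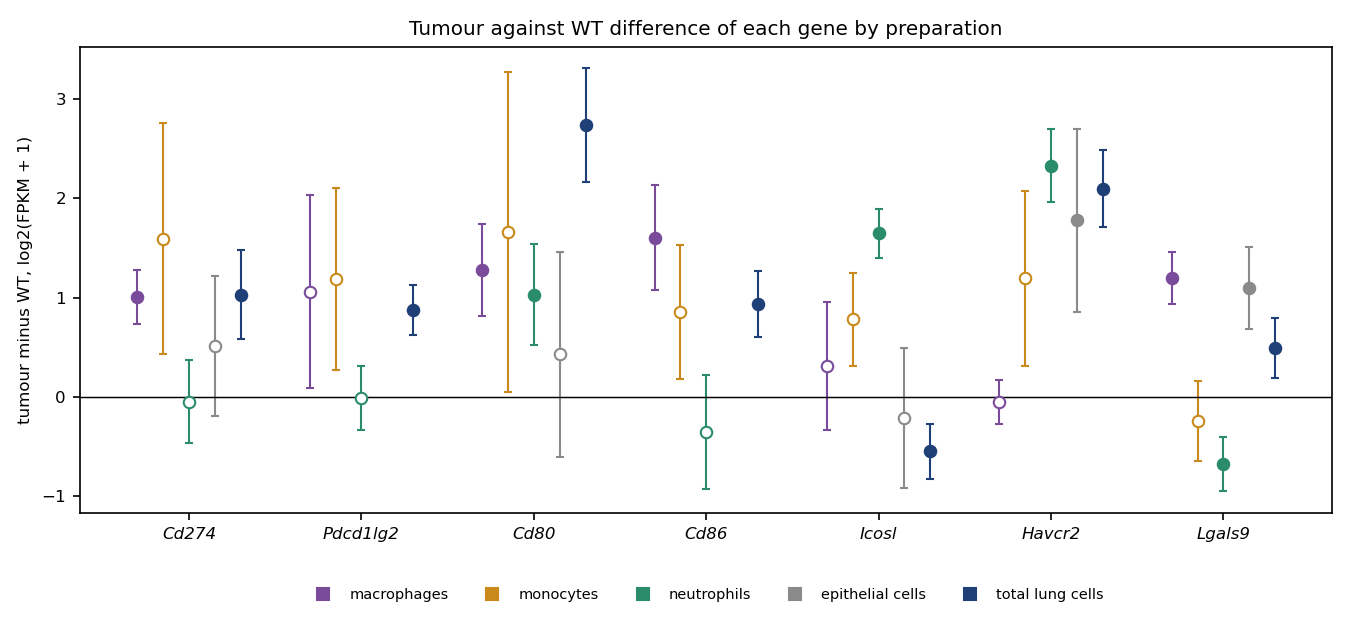
Tumour minus WT difference of 7 genes on the log2(FPKM + 1) scale (vertical axis), by preparation (colour), with 95% intervals from limma; filled points passed an adjusted p under 0.05 and open points did not. Cd80 in total lung cells, at 2.74, is the highest point and Lgals9 in neutrophils, at -0.68, the lowest.

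Cd274 encodes PD-L1. Its level was highest in neutrophils, where tumour libraries held 326, 204 and 298 FPKM (replicates 6, 7 and 8) and WT libraries 289.8, 310.1 and 245 (replicates 5, 6 and 7). The libraries overlapped and the difference was -0.05 on the log2 scale (SE 0.18, 95% interval -0.47 to 0.37, adjusted p = 0.83), with a sign that turned under quantile normalization (0.36) and without tumour replicate 7 (0.15) or WT replicate 6 (0.02). In macrophages the gene was at 168, 165 and 199 FPKM in tumour and at 86.4 and 88.9 FPKM in WT libraries. Every tumour library was above both WT libraries, and the difference was 1.0 (SE 0.11, adjusted p = 0.000805).

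Monocytes held less Cd274 and differed among themselves. Tumour monocyte replicate 4 was at 118 FPKM and replicate 5 at 41.8 FPKM, against 21.7 and 23.6 FPKM in WT monocytes. Both tumour libraries were above both WT libraries, but they were also far apart, and the difference of 1.59 (SE 0.47) did not pass (adjusted p = 0.232). It passed without tumour monocyte replicate 5 (2.33) and in a fit of all 10 groups together. Over 11 alternatives its adjusted p ran from 0.00746 to 0.607. Monocyte-derived macrophage markers, summed, were at 5095 FPKM in tumour replicate 4 and 3117 in replicate 5, against 1590 and 1938 in the WT libraries. Neutrophil markers were at 494 and 283 FPKM in tumour replicates 4 and 5 and at 235 and 2073 FPKM in WT replicates 3 and 4. Summed endothelial markers were at 101 to 263 FPKM in tumour and 541 to 839 in WT monocytes, and lung epithelial markers at 130 to 171 and 730 to 2222.5. Natural killer cell markers were at 305 to 770 and 397 to 795. Those of alveolar macrophages (218 to 422 against 70.2 to 97.0) and dendritic cells (196 to 198 against 117 to 132) were higher in tumour. Their part in the monocyte results was not tested. In total lung cells Cd274 was at 106, 87.9 and 153 FPKM in tumour and at 56.5, 50.9 and 56.7 FPKM in WT libraries, a rise of 1.03 (SE 0.19, adjusted p = 0.00484). Total lung cells are a mixture, so more cells of a type and more RNA per cell cannot be told apart in them, nor can fewer cells and less RNA. Epithelial cells held the least, at 12.8, 6.26 and 10.7 FPKM in tumour and 5.53, 9.13 and 5.12 FPKM in WT libraries, which overlapped (0.51, SE 0.30, adjusted p = 0.237).

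By group mean, Cd274 ran from WT neutrophils (282 ± 33.4 FPKM, n = 3) and tumour neutrophils (276 ± 63.8) through tumour macrophages (177 ± 18.7), tumour total lung (116 ± 33.8), WT macrophages (87.7 ± 1.78), tumour monocytes (79.8 ± 53.7), WT total lung (54.7 ± 3.25) and WT monocytes (22.6 ± 1.34) to tumour epithelial cells (9.93 ± 3.35) and WT epithelial cells (6.59 ± 2.21). The libraries of 5 neighbouring pairs in this order overlapped: the neutrophil groups, tumour total lung with WT macrophages, WT macrophages with tumour monocytes, tumour monocytes with WT total lung, and the epithelial groups. Tumour macrophages overlapped neither neighbour.

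**Figure D2:**
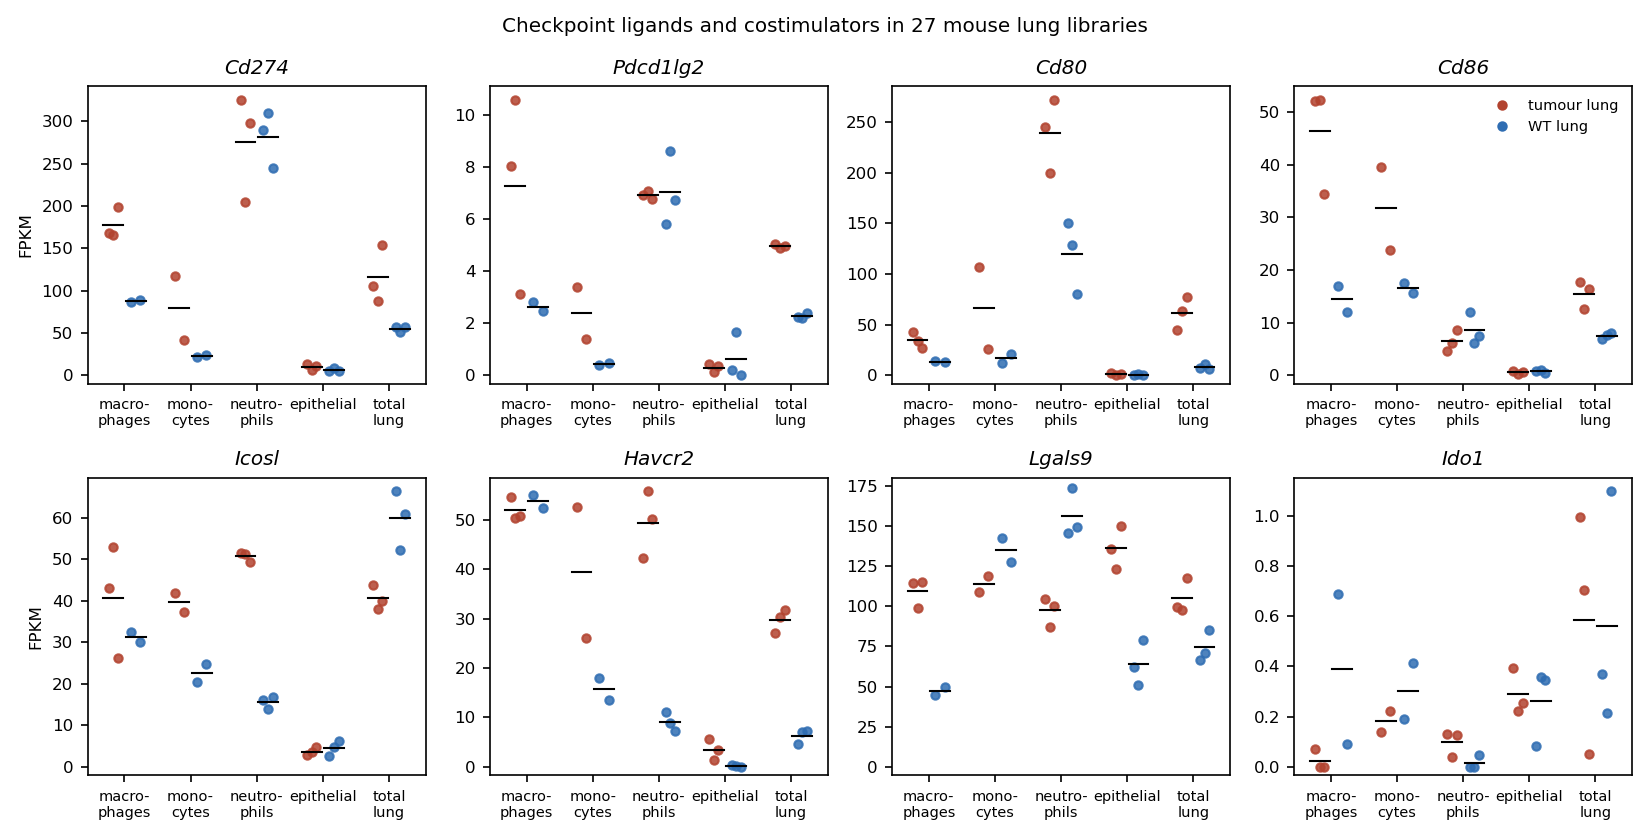
FPKM (vertical axis, linear, a scale per panel) of the 8 genes in each preparation; points are libraries, red from tumour and blue from WT lung, and black lines are group means. Cd274 is at 204 FPKM or more in all 6 neutrophil libraries, Icosl is higher in tumour than in WT neutrophils and lower in tumour than in WT total lung cells, and Ido1 is at or under 1.10 FPKM throughout.

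Pdcd1lg2 encodes PD-L2, the other ligand of PD-1, and its level was below that of Cd274 in every library. Tumour macrophages held 8.04, 10.6 and 3.13 FPKM and WT macrophages 2.79 and 2.46. All tumour libraries were above the WT ones, but replicate 3 was close to them, and the difference of 1.06 (SE 0.41) did not pass (adjusted p = 0.0819). It passed without that library (1.50) and in the fit of all groups. It also passed with the replicate number as a block, which leaves that library out of the estimate too, as no WT macrophage library shares its number. Its adjusted p ran from 0.000495 to 0.268 over 13 alternatives. Neutrophils held 6.90, 7.06 and 6.76 FPKM in tumour and 5.79, 8.60 and 6.71 in WT libraries, which overlapped (-0.01, 95% interval -0.33 to 0.32, adjusted p = 0.965).

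Total lung cells held 5.05, 4.89 and 4.98 FPKM of Pdcd1lg2 in tumour and 2.22, 2.19 and 2.37 in WT libraries. The groups were tight and apart, and the gene rose by 0.87 (SE 0.11, adjusted p = 0.000925). Monocytes held 3.38 and 1.39 FPKM in tumour and 0.390 and 0.452 in WT libraries (1.19, SE 0.37, adjusted p = 0.245). Epithelial cells held up to 1.65 FPKM, with 1 WT library listed at 0, and were not tested. The ratio of Cd274 to Pdcd1lg2 lay between 15.7 and 63.5 in every macrophage, monocyte, neutrophil and total lung library. Dendritic cell markers moved with these genes in macrophages: 6 of 12 were higher and 2 lower in tumour, with none at 0 throughout a group. Their summed level was 1243, 2108 and 479 FPKM in tumour replicates 1, 2 and 3 and 242 to 256 FPKM in WT macrophages. Replicate 3, the lowest of the 3 in these markers, was also the lowest in Pdcd1lg2, and it was the highest in Cd274. Of the other markers, 9 of 12 of monocyte-derived macrophages were higher and 2 lower in tumour macrophages (4624 to 6558 against 536 to 581 FPKM, with Apoe listed at 0 in every tumour library). Of alveolar macrophage markers 1 of 7 was higher and 5 were lower, although their summed level was 1783 to 2255 FPKM in tumour and 1317 to 1469 in WT libraries. Endothelial markers were lower in 9 of 10 cases (32.3 to 36.9 against 81.6 to 87.9 FPKM), and of 11 lung epithelial markers 3 were higher and 6 lower (152 to 781 against 1199 to 1306 FPKM). Of 7 neutrophil markers tested 3 were higher and 0 lower (129 to 298 against 61.7 to 79.7 FPKM). Of 11 T cell markers tested 1 was higher and 1 lower (52.6 to 83.4 against 262 to 279 FPKM). The part of these markers in the macrophage results was not tested.

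Cd80 and Cd86 encode the ligands shared by CD28 and CTLA-4. Cd80 was highest in neutrophils. Tumour neutrophils held 245, 200.1 and 272 FPKM and WT neutrophils 150.2, 128 and 80.0. All tumour libraries were above all WT libraries, and Cd80 rose by 1.03 (SE 0.22, adjusted p = 0.00404). Macrophages held 43.1, 34.1 and 26.5 FPKM in tumour and 13.9 and 12.8 in WT libraries. Here too the groups were apart, and Cd80 rose by 1.28 (SE 0.19, adjusted p = 0.00275).

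In total lung cells Cd80 was at 44.9, 63.9 and 76.9 FPKM in tumour and at 7.30, 11.6 and 6.50 FPKM in WT libraries. This difference, 2.74 (SE 0.25, adjusted p = 0.000312), was the largest between tumour and WT of any gene described here in any preparation. Neutrophil markers also differed between these lungs: 6 of 9 were higher and 1 lower in tumour, with a summed level of 2055 to 4917 against 958 to 1694 FPKM. Monocyte-derived macrophage markers were higher in 11 of 12 cases, with a summed level of 3572 to 6118 against 505 to 735 FPKM. Alveolar macrophage markers were higher in 6 of 7 cases, while natural killer cell markers were lower in 5 of 5 (118 to 194 against 431 to 529 FPKM) and fibroblast markers in 7 of 8 (94.6 to 272 against 443 to 1272 FPKM). Of 12 dendritic cell markers 6 were higher and 1 lower, although their summed levels overlapped (330 to 532 against 383 to 637 FPKM). The part of these markers in the total lung results was not tested. In monocytes Cd80 was at 107 and 26.3 FPKM in tumour and at 12.3 and 20.9 FPKM in WT libraries. The difference of 1.67 (SE 0.65, adjusted p = 0.322) did not pass, but passed without tumour monocyte replicate 5 (2.66) and in the fit of all groups, with adjusted p-values of 0.0311 to 1 over 11 alternatives. Epithelial cells held at most 1.795 FPKM, and WT epithelial replicate 10 was listed at 0.

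Cd86 was highest in tumour macrophages. These held 52.2, 52.4 and 34.5 FPKM, and WT macrophages 16.9 and 12.02. The groups did not overlap, and Cd86 rose by 1.61 (SE 0.22, adjusted p = 0.00185). Neutrophils held only 4.52, 6.15 and 8.59 FPKM in tumour and 12.05, 6.20 and 7.40 in WT libraries. These overlapped, and the difference was -0.35 (95% interval -0.93 to 0.22, adjusted p = 0.256).

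Monocytes held 39.6 and 23.8 FPKM of Cd86 in tumour and 17.5 and 15.6 in WT libraries (0.86, SE 0.27, adjusted p = 0.252). In total lung cells it was at 17.7, 12.5 and 16.3 FPKM in tumour and at 6.85, 7.70 and 8.07 FPKM in WT libraries, a rise of 0.94 (SE 0.14, adjusted p = 0.00206). By group mean Cd86 was highest in tumour macrophages (46.3 ± 10.3 FPKM, n = 3), followed by tumour monocytes (31.7 ± 11.2, n = 2), whose libraries overlapped. Epithelial cells were at 0.571 ± 0.275 (tumour) and 0.763 ± 0.290 (WT) and were not tested.

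The ratio of Cd80 to Cd86 separated neutrophils from macrophages, monocytes and total lung cells. It was 31.7 to 54.3 in tumour neutrophils and 10.8 to 20.7 in WT neutrophils. In macrophages it was 0.651 to 0.826 in tumour and 0.819 to 1.07 in WT libraries, which overlapped. Monocytes had 2.70 and 1.11 in tumour and 0.705 and 1.34 in WT libraries. Total lung cells had 2.54 to 5.10 in tumour and 0.805 to 1.51 in WT libraries. FPKM are scaled to transcript length, so these are ratios of levels per length, and they were described without a test.

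**Figure D3:**
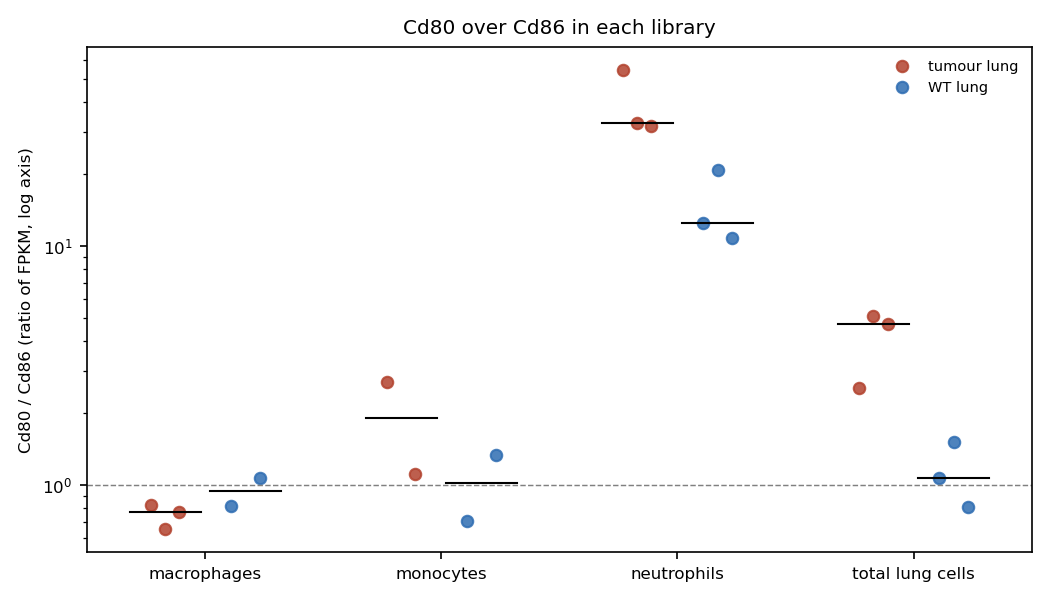
Ratio of Cd80 to Cd86 FPKM (vertical axis, logarithmic) in each library of 4 preparations; red points are tumour and blue points WT libraries, black lines are medians and the dashed line marks equal levels. Tumour neutrophils lie at 31.7 to 54.3, above WT neutrophils at 10.8 to 20.7, and macrophages lie at 0.651 to 1.07.

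Icosl encodes the ligand of ICOS, a receptor of activated T cells. In neutrophils it was at 51.6, 51.4 and 49.4 FPKM in tumour and at 16.0, 13.9 and 16.8 FPKM in WT libraries. The groups were tight and far apart, with a rise of 1.65 (SE 0.11, adjusted p = 1.31e-05). In total lung cells the direction was the opposite, with 43.8, 37.9 and 39.9 FPKM in tumour and 66.5, 52.2 and 61.0 in WT libraries. Every WT library was above every tumour library, and Icosl fell by 0.55 (SE 0.12, adjusted p = 0.00857), a call that neither a fit with the replicate number as a block nor all 10 groups fitted together gave (adjusted p of 0.00264 to 0.127 over 14 alternatives).

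B cell and endothelial markers moved with Icosl in total lung cells. All 10 B cell markers were lower in tumour lung, with a summed level of 216 to 581 FPKM against 967 to 1687. All 10 endothelial markers were also lower, at 79.4 to 175 against 398 to 796 FPKM, and none of either list was at 0 throughout a group. Their part in the total lung result was not tested. B cell markers were lower in tumour neutrophils as well, for 10 of 10 genes (14.3 to 77.4 against 210 to 293 FPKM), where Icosl was higher. Monocyte-derived macrophage markers moved the same way as Icosl in neutrophils: 9 of 10 tested were higher, at 361 to 472 against 167 to 260 FPKM. Their part in the neutrophil results was not tested.

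Monocytes held 41.9 and 37.3 FPKM of Icosl in tumour and 20.5 and 24.9 in WT libraries. The groups were apart, but the difference of 0.78 (SE 0.19) did not pass (adjusted p = 0.189). Macrophages held 43.1, 52.9 and 26.1 FPKM in tumour and 32.4 and 30.1 in WT libraries, which overlapped, since replicate 3 lay below both (0.32, SE 0.27, adjusted p = 0.396). Without that library the difference was 0.60 and passed. It also passed with the replicate number as a block, which leaves that library out of the estimate too. Over 13 alternatives the adjusted p ran from 0.00635 to 0.771. The order of the 3 tumour libraries was that of the dendritic cell markers given above. Epithelial cells held 2.86, 3.46 and 4.65 FPKM in tumour and 2.56, 4.87 and 6.28 in WT libraries (-0.21, SE 0.30, adjusted p = 0.614).

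Havcr2, the gene of TIM-3, had about the same level in macrophages of both kinds of lung. It was at 54.6, 50.3 and 50.8 FPKM in tumour and at 55.1 and 52.4 FPKM in WT libraries, and the difference of -0.05 had a 95% interval of -0.27 to 0.17 (adjusted p = 0.704). Neutrophils held 42.2, 55.8 and 50.2 FPKM in tumour and 11.1, 8.88 and 7.27 in WT libraries. The tumour libraries overlapped those of macrophages and lay above all WT neutrophil libraries, and Havcr2 rose by 2.33 (SE 0.16, adjusted p = 1.64e-05). Total lung cells held 27.1, 30.4 and 31.7 FPKM in tumour and 4.56, 7.02 and 7.20 in WT libraries, a rise of 2.10 (SE 0.17, adjusted p = 0.000198).

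Monocytes held 52.6 and 26.1 FPKM of Havcr2 in tumour and 18.1 and 13.6 in WT libraries. The difference of 1.19 (SE 0.36) did not pass (adjusted p = 0.236), and passed without tumour monocyte replicate 5 (1.69) and in the fit of all groups, with adjusted p-values of 0.0311 to 0.821 over 11 alternatives. In epithelial cells the gene was at 5.67, 1.34 and 3.36 FPKM in tumour and at 0.394, 0.190 and 0.0140 FPKM in WT libraries. All tumour libraries were above all WT libraries, and the rise of 1.78 (SE 0.39) passed (adjusted p = 0.0231). Every WT value was under the filter of 1 FPKM, so the gene entered this test only through the tumour libraries where it was higher. The call was lost in 7 of 13 alternatives, over which the adjusted p ran from 3.35e-05 to 0.107. It was lost without the filter, with the replicate number as a block, and without tumour replicate 9 (1.42) or 11 (1.73) or WT replicate 8 (1.89), 9 (1.78) or 10 (1.66).

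Some macrophage markers moved with Havcr2 in epithelial cells and others did not. Itgax, the gene of CD11c, which the gate left out, was at 16.5 ± 10.8 FPKM in tumour and 3.23 ± 2.15 in WT epithelial libraries (n = 3 each). Itgam, the gene of CD11b, which the gate also left out, had no higher mean in tumour (0.511 ± 0.208 against 0.762 ± 0.672 FPKM). The same held for Ptprc, the gene of CD45 (18.0 ± 3.75 against 24.8 ± 11.2 FPKM). Of 7 alveolar macrophage markers 4 were higher and none lower in tumour epithelial cells, although their summed level was 208 to 482 against 552 to 800 FPKM. Of 10 monocyte-derived macrophage markers tested 1 was higher and none lower, with a summed level of 260.0 to 450.0 against 359 to 605 FPKM. B cell markers were lower in 8 of 9 cases (38.4 to 49.9 against 101 to 175 FPKM) and endothelial markers in 10 of 10 (24.1 to 94.4 against 212 to 419 FPKM). The part of these markers in the epithelial results was not tested.

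Lgals9, the gene of galectin-9, was the only one of the 8 at 44.8 FPKM or more in all 27 libraries. In macrophages it was at 114, 98.9 and 115 FPKM in tumour and at 44.8 and 49.5 FPKM in WT libraries. It rose by 1.20 (SE 0.11, adjusted p = 0.000327). In epithelial cells it was at 136, 123 and 149.9 FPKM in tumour and at 62.0, 51.0 and 79.1 FPKM in WT libraries. Again the groups were apart, and Lgals9 rose by 1.10 (SE 0.18, adjusted p = 0.00998), a call lost without WT epithelial replicate 8 (1.09) and with the replicate number as a block, with an adjusted p of 2.34e-06 to 0.084 over 14 alternatives.

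In neutrophils Lgals9 went the other way, at 105, 87.5 and 100.5 FPKM in tumour and at 146, 174 and 149.8 FPKM in WT libraries. Every WT library was above every tumour library, and the gene fell by 0.68 (SE 0.12, adjusted p = 0.00156). Several marker lists fell with it in neutrophils. Of 12 lung epithelial markers 7 were lower and 3 higher, with a summed level of 64.1 to 116 FPKM in tumour and 723 to 3278 FPKM in WT libraries. Endothelial markers were lower in 10 of 10 cases (16.9 to 26.7 against 65.1 to 92.6 FPKM) and fibroblast markers in 6 of 7 (10.997 to 19.1 against 31.4 to 101 FPKM). The neutrophils' own markers were lower in 6 of 9 cases and higher in none (13696 to 15643 against 31157 to 33358 FPKM). The part of these markers in the neutrophil results was not tested.

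Monocytes were at 109 and 119 FPKM of Lgals9 in tumour and at 143 and 127 FPKM in WT libraries (-0.24, SE 0.16, adjusted p = 0.544). Total lung cells were at 99.4, 97.99 and 117 FPKM in tumour and at 66.8, 71.2 and 85.6 FPKM in WT libraries. The rise of 0.49 (SE 0.13, adjusted p = 0.0186) was lost with quantile normalization (0.21), with the replicate number as a block and without tumour replicate 14 (0.41), WT replicate 11 (0.42) or WT replicate 12 (0.46). Over 14 alternatives its adjusted p ran from 0.00677 to 0.212. By group mean the order ran from WT neutrophils (157 ± 15.2 FPKM, n = 3), tumour epithelial cells (136 ± 13.3) and WT monocytes (135 ± 10.9, n = 2) to WT macrophages (47.1 ± 3.31, n = 2), and 6 of the 9 neighbouring pairs overlapped.

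Ido1, the gene of the tryptophan-degrading enzyme, was at or under 1.10 FPKM in all 27 libraries and was tested in no comparison. Its highest values were 0.996 FPKM in tumour total lung replicate 12 and 1.10 FPKM in WT total lung replicate 13. It was listed at 0 in 2 tumour macrophage and 2 WT neutrophil libraries. The 3 tumour macrophage libraries were below both WT ones, which were at 0.687 and 0.0909 FPKM, and in the other 4 preparations the libraries overlapped. These differences were not tested.

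A tumour against WT difference that passes in 1 population and not in another is not by itself a difference between them, so the difference of the 2 effects was tested in a fit of all 10 groups. Between macrophages and neutrophils 4 of 7 genes passed, beside 39.2% of all genes. The effect was larger in macrophages for Cd86 (by 1.96, SE 0.36, adjusted p = 0.000199) and Lgals9 (by 1.87, SE 0.20, adjusted p = 3.76e-07). It was larger in neutrophils for Havcr2 (-2.38, SE 0.41, adjusted p = 0.000101) and Icosl (-1.33, SE 0.33, adjusted p = 0.00271). Cd274 (1.05, SE 0.44), Pdcd1lg2 (1.07, SE 0.47) and Cd80 (0.25, SE 0.62) did not pass (adjusted p = 0.0613, 0.0787 and 0.811), so the gain of Cd274 in macrophages was not shown to differ from the value in neutrophils.

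Between macrophages and monocytes 1 of 7 genes passed, beside 16.7% of all genes: Lgals9 (1.44, SE 0.23, adjusted p = 0.000104). Between monocytes and neutrophils 2 of 7 passed, beside 20.5% of all genes. These were Cd274 (1.64, SE 0.46, adjusted p = 0.0148) and Cd86 (1.21, SE 0.38, adjusted p = 0.0296), both with the larger effect in monocytes. Cd274 lost the call without tumour monocyte replicate 4 (0.91) or WT monocyte replicate 3 (1.59) and under quantile normalization (1.20), with adjusted p-values of 0.000591 to 0.164 over 16 alternatives. Cd86 lost it with a pseudocount of 0.1 (1.29) and without tumour monocyte replicate 4 (0.85), WT monocyte replicate 3 (1.29) or 4 (1.13), tumour neutrophil replicate 6 (1.01) or 7 (1.20), or WT neutrophil replicate 5 (0.96). Its adjusted p ran from 0.0129 to 0.198 over 16 alternatives. Havcr2, which did not pass between macrophages and monocytes (-1.24, SE 0.46, adjusted p = 0.0682), passed without tumour monocyte replicate 5 (-1.73), and Cd274 there (-0.59, SE 0.48, adjusted p = 0.472) passed without it too (-1.33). Their adjusted p ran from 0.0158 to 0.372 and from 0.0401 to 0.909 over 15 alternatives each.

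Between populations of the same lung, the genes sorted macrophages, monocytes and neutrophils in different ways. In tumour lung, Cd274 (1.32, SE 0.33, adjusted p = 0.00338) and Pdcd1lg2 (1.22, SE 0.35, adjusted p = 0.0101) were higher in macrophages than in monocytes. These were 2 of 7 genes, beside 33.4% of all genes, and both calls were lost without tumour monocyte replicate 5 (0.58 and 0.79). Pdcd1lg2 also lost it without tumour macrophage replicate 2 (0.92) and with a pseudocount of 0.1 (1.52). Over 11 alternatives the adjusted p ran from 8.51e-05 to 0.228 for Cd274 and from 0.000526 to 0.211 for Pdcd1lg2. Against tumour neutrophils, tumour macrophages had less Cd80 (-2.77, SE 0.41, adjusted p = 3.74e-06) and more Cd86 (2.68, SE 0.24, adjusted p = 2.67e-09). These were 2 of 7, beside 64.4% of all genes.

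Tumour monocytes had less Cd274 (-1.93, SE 0.33), Cd80 (-2.13, SE 0.46) and Pdcd1lg2 (-1.29, SE 0.35) and more Cd86 (2.13, SE 0.27) than tumour neutrophils, with adjusted p-values of 2.28e-05, 0.00035, 0.00289 and 6.28e-07. This made 4 of 7, beside 64.6% of all genes, and Pdcd1lg2 lost the call without tumour monocyte replicate 5 (-0.85), with an adjusted p of 1.56e-05 to 0.0967 over 11 alternatives. Against tumour epithelial cells all 7 genes passed, beside 69.2% of all genes. There 6 were higher in macrophages, led by Cd86 (4.90, SE 0.24, adjusted p = 1.74e-13), and Lgals9 was lower (-0.31, SE 0.14, adjusted p = 0.0463). The call on Lgals9 was lost without the filter and without tumour macrophage replicate 1 (-0.35), 2 (-0.24) or 3 (-0.35) or tumour epithelial replicate 9 (-0.31) or 11 (-0.24), with adjusted p-values of 0.00053 to 0.169 over 12 alternatives.

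In WT lung, macrophages had more Cd274 (1.91, SE 0.36), Havcr2 (1.72, SE 0.34) and Pdcd1lg2 (1.35, SE 0.38) and less Lgals9 (-1.50, SE 0.17) than monocytes, with adjusted p-values of 0.00016, 0.000284, 0.00675 and 3.01e-07. These were 4 of 7, beside 43.6% of all genes. Against WT neutrophils all 7 passed, beside 67.9% of all genes. WT macrophages had less Cd80 (-3.02, SE 0.46), Lgals9 (-1.71, SE 0.15), Cd274 (-1.67, SE 0.33) and Pdcd1lg2 (-1.13, SE 0.35), and more Havcr2 (2.46, SE 0.31), Icosl (0.96, SE 0.25) and Cd86 (0.73, SE 0.27), with adjusted p-values from 1.42e-09 for Lgals9 to 0.022 for Cd86. The calls on Icosl and Cd86 were lost with upper-quartile scaling (0.26 and 0.05), and Cd86 was -0.04 after quantile normalization. Cd86 also lost it with a pseudocount of 0.1 (0.79) and without WT macrophage replicate 1 (0.49), WT neutrophil replicate 6 (0.55) or WT neutrophil replicate 7 (0.66). Pdcd1lg2 lost it with a pseudocount of 0.1 (-1.37).

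These contrasts with neutrophils depend on scale. The median of all genes was 0.41 higher in tumour macrophages and 0.57 higher in tumour monocytes than in tumour neutrophils, and 0.45 higher in WT macrophages than in WT neutrophils. Upper-quartile scaling took these medians to -0.05, 0.06 and 0.00, and the share of calls lower in neutrophils went from 78.8% to 49.2% in the first contrast, from 85.4% to 52.7% in the second and from 73.7% to 54.4% in the last. With that scaling all 7 genes described here passed between tumour macrophages and tumour neutrophils, and 7666 of all genes did (8140 as deposited). Havcr2 (-0.70) and Lgals9 (-0.62) turned to the lower side, while Cd80 and Cd86 kept their directions. Against tumour epithelial cells the median of all genes was -0.35, and the share of calls higher in macrophages went from 29.6% to 51.1% with quantile normalization.

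Within preparations, the share of calls higher in tumour went from 53.4% to 43.3% in macrophages and from 62.7% to 78.6% in epithelial cells with upper-quartile scaling. None of the 17 tumour against WT calls on the genes described here changed direction under a scaling.

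Each gene had its own order of groups. Cd80 ran from tumour neutrophils (239 ± 36.3 FPKM, n = 3) through WT neutrophils (119 ± 35.9), tumour monocytes (66.6 ± 56.9, n = 2), tumour total lung (61.9 ± 16.1) and tumour macrophages (34.6 ± 8.33) to WT monocytes (16.6 ± 6.09, n = 2), WT macrophages (13.4 ± 0.724, n = 2) and WT total lung (8.46 ± 2.73). Among these neighbours, WT neutrophils overlapped tumour monocytes, tumour monocytes overlapped tumour total lung, and the WT monocyte and WT macrophage libraries overlapped. For Cd86, below the tumour macrophages and monocytes given above, came WT monocytes (16.5 ± 1.30), tumour total lung (15.5 ± 2.67), WT macrophages (14.5 ± 3.47), WT neutrophils (8.55 ± 3.09), WT total lung (7.54 ± 0.629) and tumour neutrophils (6.42 ± 2.05), each overlapping the next.

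Icosl was highest in WT total lung (59.9 ± 7.20 FPKM, n = 3), whose libraries were all above those of the next group. Tumour neutrophils (50.8 ± 1.20), tumour macrophages (40.7 ± 13.6), tumour total lung (40.5 ± 2.97) and tumour monocytes (39.6 ± 3.30) followed, each overlapping the next, and WT macrophages (31.2 ± 1.64), WT monocytes (22.7 ± 3.12) and WT neutrophils (15.6 ± 1.52) came last of the leukocytes, each apart from its neighbours. Havcr2 had WT macrophages (53.8 ± 1.85), tumour macrophages (51.9 ± 2.36), tumour neutrophils (49.4 ± 6.84), tumour monocytes (39.4 ± 18.7) and tumour total lung (29.7 ± 2.39) in front, overlapping in turn, and WT monocytes (15.8 ± 3.16), WT neutrophils (9.08 ± 1.91) and WT total lung (6.26 ± 1.48) behind them. Pdcd1lg2 was highest in tumour macrophages (7.25 ± 3.78), WT neutrophils (7.03 ± 1.43) and tumour neutrophils (6.91 ± 0.153), which overlapped.

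The 5 ligands of the B7 family (Cd274, Pdcd1lg2, Cd80, Cd86 and Icosl) can be added, since FPKM are per length. Their sum was highest in neutrophils, at 469 to 635 FPKM in tumour and 356 to 474 in WT libraries, which overlapped. In macrophages it was 289 to 315 in tumour and 146 to 152 in WT libraries, and in epithelial cells 9.23 to 18.7 over both groups. Cd274 made up 58.2% ± 9.19 of the sum in tumour and 58.7% ± 2.88 in WT macrophages. Its share in neutrophils was 43.5% to 51.4% in tumour and 61.2% to 68.8% in WT libraries, and that of Cd80 was 38.7% to 42.8% and 22.5% to 31.7%. In both cases the groups did not overlap. In total lung cells the share of Icosl was 13.7% to 20.1% in tumour and 41.9% to 47.7% in WT libraries. These shares are a description and were not tested.

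**Figure D4:**
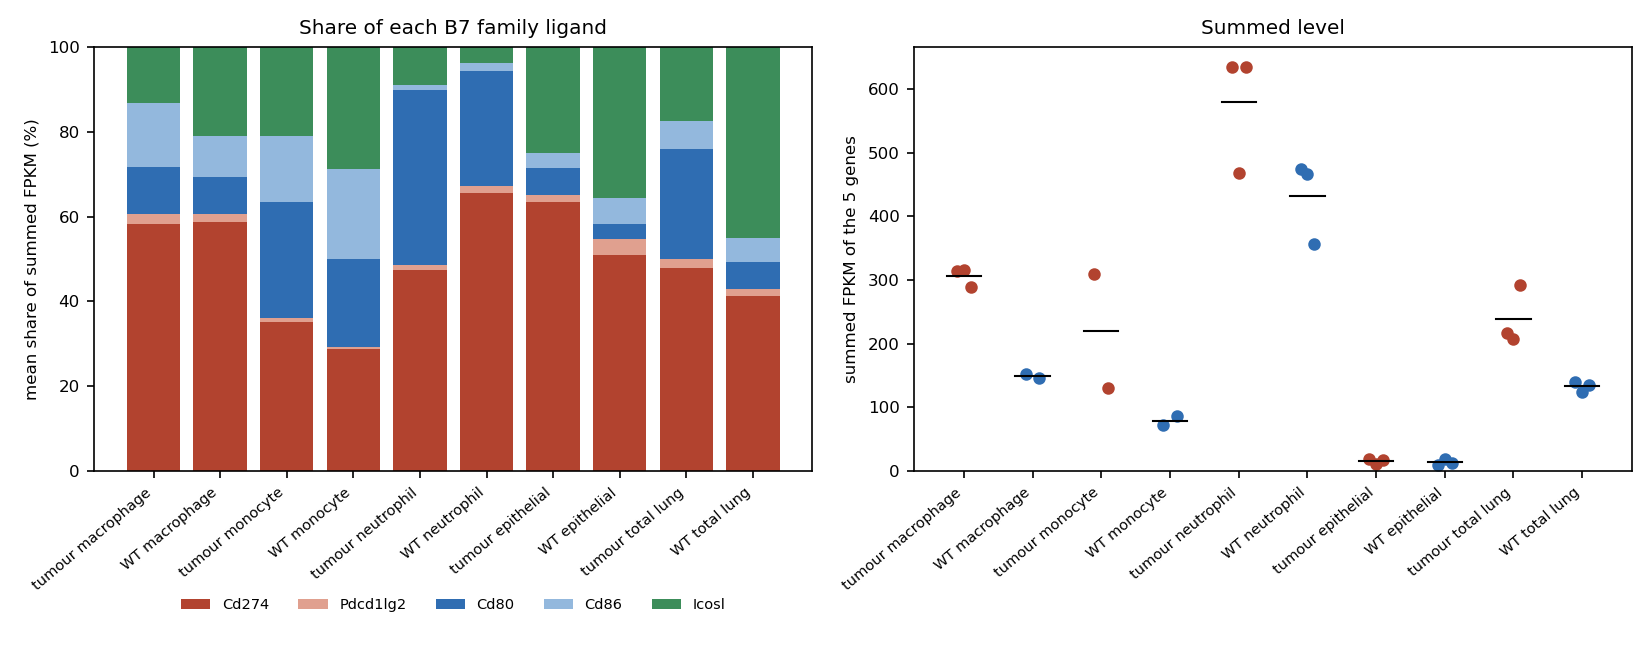
Left, mean share (percent) of each of 5 B7 family ligands in their summed FPKM, by group; right, the summed FPKM of each library (red tumour, blue WT) with group means as black lines. Icosl takes 45.0% of the sum in WT total lung cells and 17.4% in tumour total lung cells, and the sum in tumour neutrophils is 469 to 635 FPKM.

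Across the 10 group means of log2(FPKM + 1), Cd274 and Pdcd1lg2 had the highest correlation of any pair of the 7 genes (Pearson's r = 0.96, n = 10), followed by Cd274 and Cd80 (0.92). Lgals9 lay between -0.12 and 0.34 with each of the others. Such values are descriptions: groups share populations, and the points are not independent. Among 10125 genes with a group mean of at least 5 FPKM, those most like each gene were found by the same measure. For Cd80 they were Nfkbia, the inhibitor of NF-kappaB (0.98), Nlrp3, an inflammasome sensor (0.98), and Gadd45b, a stress-induced gene (0.98). Nfkbia had a mean of 3782 FPKM in tumour and 1929 in WT neutrophils, against 1335 and 544 in tumour and WT macrophages.

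For Cd274 the most similar genes were Mgat4a, a glycosyltransferase (0.97), Ccr1, a chemokine receptor (0.96), and Cd300lf, an inhibitory myeloid receptor (0.96). For Pdcd1lg2 they were Cd274 itself (0.96), Mgat4a (0.95) and Mmp25, a membrane-bound metalloprotease (0.93). Cd86 ran with Unc93b1, which carries toll-like receptors to endosomes (0.97), Fermt3, an integrin activator (0.96), and Rgs1, a regulator of G protein signalling (0.96). For Havcr2 they were Ubash3b, a phosphatase (0.97), Sirpa, the receptor of CD47 (0.96), and P2ry12, a nucleotide receptor (0.96). Icosl was most like Tap2, a peptide transporter of antigen presentation (0.95), Sipa1 (0.94) and Psd4 (0.94). Lgals9 was least well matched, with Ndrg1 (0.94), S100a6 (0.90) and Rtp4, an interferon-induced gene (0.87). All 21 were also among the first 10 for their gene over the 27 libraries.

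Other genes of these pathways were taken from 6 lists, and their counts stand beside the share of all genes called, which was 37.9% for macrophages, 59.1% for neutrophils, 23.8% for the epithelial and 42.5% for the total lung comparison. Of 12 other costimulatory ligands tested in macrophages, 8 were higher in tumour and 2 lower, with a median difference of 1.24 against 0.00 for all genes. Cd83, a surface protein of activated antigen-presenting cells, was at 637 ± 45.9 FPKM in tumour (n = 3) and 85.9 ± 3.39 in WT macrophages (n = 2). Slamf7 was at 126 ± 0.857 and 10.7 ± 4.15 FPKM. In neutrophils 1 of 7 was higher and 4 lower (median -0.72 against 0.11 for all genes). The higher gene was Icam1, the adhesion ligand of LFA-1, with 583 ± 22.7 FPKM in the 3 tumour libraries and 105 ± 15.2 in the 3 WT ones. In epithelial cells 0 of 7 were higher and 3 lower, and in total lung cells 4 of 11 were higher and 2 lower.

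Of the other inhibitory ligands, 5 of 11 were higher and 2 lower in macrophages, 3 of 10 and 2 in neutrophils, 5 of 14 and 2 in epithelial cells, and 5 of 13 and 2 in total lung cells. The medians were 0.07, 0.25, 0.43 and 0.19, and in neutrophils the called share was below that of all genes (59.1%), so nothing is read from these counts about the list. Tnfrsf14, the ligand of BTLA, was at 12.6 ± 1.62 FPKM in tumour and 1.38 ± 0.346 in WT macrophages. Cd47, the signal that limits phagocytosis, moved in opposite directions: it was at 71.2 ± 4.48 FPKM in tumour and 153 ± 10.3 in WT macrophages, and at 94.1 ± 13.7 in tumour and 35.2 ± 0.805 in WT neutrophils. Lgals3, the gene of galectin-3, was at 531 ± 157 FPKM in tumour and 95.7 ± 10.4 in WT total lung cells.

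A list of checkpoint and costimulatory receptors, not all of which bind the ligands described here, had its highest summed level in total lung cells. There 8 of 17 tested were higher in tumour and 2 lower, beside 42.5% of all genes called (median 0.59 against -0.01 for all genes). Pdcd1, the gene of PD-1, was at 12.1 to 32.0 FPKM in tumour and 1.35 to 2.58 in WT libraries, a rise of 2.68 (SE 0.35, adjusted p = 0.00116). Cd200r1 also rose, to 19.4 ± 6.75 from 3.60 ± 0.128 FPKM (2.09, adjusted p = 0.000543). Btla was lower in tumour, at 30.7 ± 2.63 against 77.8 ± 16.9 FPKM (-1.30, SE 0.17, adjusted p = 0.00113). Cd27 was lower too, at 16.6 ± 1.98 against 21.3 ± 0.883 FPKM (-0.35, SE 0.11, adjusted p = 0.0394). Ctla4 was at 42.2 to 64.0 and 19.9 to 31.0 FPKM (0.92, SE 0.21, adjusted p = 0.0101), while Cd28 was at 12.8 to 22.1 and 21.6 to 31.7 FPKM (-0.61, SE 0.21, adjusted p = 0.0505) and Icos at 14.02 to 30.4 and 11.3 to 13.5 FPKM (0.59, SE 0.25, adjusted p = 0.0945). T cell markers did not rise with Pdcd1 and Ctla4: 0 of 12 were higher and 4 lower, with a summed level of 596 to 599 FPKM in tumour and 674 to 735 in WT libraries. In macrophages 2 of 12 receptors tested were higher in tumour and 2 lower. The higher ones were Tnfrsf9 (9.32 ± 3.46 against 0.855 ± 0.255 FPKM) and Lag3 (8.42 ± 3.30 against 1.36 ± 0.0328). Which cells carry the receptors in total lung was not tested. Ctla4, Cd28 and Icos were named after their values were seen, as the receptors of the ligands described.

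Genes of the pathways that control Cd274, mainly interferon gamma signalling, were higher in 13 of 18 cases in tumour macrophages and lower in none. The median difference was 0.72 against 0.00 for all genes, of which 37.9% were called. The list also held the feedback inhibitors Socs1 and Socs3, so these are not counts of inducers alone. In neutrophils 5 of 17 were higher and 5 lower (median -0.25), which is about the share of all genes called there (59.1%). Jak2, a kinase of the interferon gamma receptor, was higher in both, at 56.8 ± 22.3 FPKM in tumour and 16.4 ± 2.02 in WT macrophages, and at 199 ± 27.4 and 73.4 ± 14.1 in neutrophils. Socs3, a feedback inhibitor of cytokine receptors, reached 247 ± 29.7 FPKM in tumour macrophages and 15.6 ± 3.35 in WT macrophages. Neutrophils also gained Socs3, from a WT mean of 212 ± 49.6 FPKM to a tumour mean of 629 ± 27.8 (1.59 by limma, adjusted p = 0.000145). Socs1 and Irf9 were lower in tumour neutrophils, at 3.74 ± 0.914 against 12.5 ± 3.50 and 12.9 ± 2.74 against 32.6 ± 2.49 FPKM.

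Genes that interferon gamma induces were higher in 9 of 12 cases and lower in none in tumour macrophages (median 1.36, beside 37.9% of all genes called), and higher in 3 and lower in 6 of 12 in tumour neutrophils (median -0.38, beside 59.1%). Gbp5, a guanylate-binding protein, was at 30.5 ± 5.68 FPKM in tumour and 1.59 ± 0.524 in WT macrophages. The T cell chemoattractant Cxcl10 was at 94.7 ± 28.6 FPKM in tumour and 11.1 ± 2.08 in WT neutrophils, while Irf8 was at 2.60 ± 1.36 and 8.91 ± 3.19. Both lists were also tested in epithelial cells, with 4 of 17 and 2 of 12 higher, and in total lung cells, with 7 of 18 and 2 of 12 higher and 3 and 0 lower. In monocytes no gene of any list passed.

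Suppressive mediators other than Ido1 were higher in 5 of 10 cases and lower in 2 in macrophages, 5 and 3 of 9 in neutrophils, 2 and 0 of 10 in epithelial cells and 5 and 0 of 10 in total lung cells. The shares of all genes called were 37.9%, 59.1%, 23.8% and 42.5%, and the shares in epithelial and total lung cells lay near them. Ptgs2, the inducible cyclooxygenase, was at 149 ± 22.6 FPKM in tumour and 2.06 ± 0.530 in WT macrophages, and at 403 ± 107 and 30.9 ± 2.63 in total lung cells. Arg1, which depletes arginine, was at 83.7 ± 11.5 FPKM in tumour and 7.33 ± 3.33 in WT total lung cells. Entpd1, an ectoenzyme that breaks down extracellular ATP, was lower in tumour neutrophils, at 118 ± 29.5 against 610.4 ± 95.4 FPKM.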

How the data were processed

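RNA from 27 libraries of sorted or total mouse lung cells was sequenced after TruSeq preparation. The authors used CASAVA 1.8.2, TopHat2, Cufflinks and Cuffdiff with the mm10 (GRCm38) build, according to the submitters' processing notes. Their deposited FPKM table covers 16024 gene symbols, and all 27 columns were matched to libraries by title. FPKM hold no counts, so depth is known only as a rough relative value (low values under 0.2 FPKM, windows of 0.02 on the log2 scale) and no counting interval is given.

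FPKM were used as deposited. Tumour was compared with WT within each preparation, and populations and differences of effects in 1 fit of all 10 groups, by limma 3.58.1 in R 4.3.3 (trend, empirical Bayes) on log2(FPKM + 1), which understates changes of low genes. Genes reaching 1 FPKM in 2 or more libraries of a comparison were tested, with Benjamini-Hochberg adjustment over all of them and a threshold of 0.05. The fits were tested on simulated data. Figures used matplotlib 3.10.9, with pandas 2.3.3 and numpy 2.4.6 in Python 3.11.15.

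The genes and lists were chosen with earlier results of these data known. All members were described. The rule then named the 3 most similar genes of each member whose highest group mean is at least 1 FPKM, among genes reaching 5 FPKM (predicted genes, small RNAs, pseudogenes and receptor segments left out), and from 6 pathway lists the 2 called genes with the largest rise and fall with a group mean of at least 5 FPKM. Not every one is written out. Lists held 207 entries in 16 lists, 6 of pathways and 10 of cell type markers, and 187 were found in the table. Pvr was not analysed here. Positions came from GENCODE M21. Alternatives were a pseudocount of 0.1 or 5, no filter or one of 5 FPKM, upper-quartile scaling, quantile normalization, each library left out, a fit of all groups and a block for the replicate number.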

Additional observations from a re-analysis of the deposited data

Results flagged for a closer look

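The tumour against WT difference of 4 genes differed between macrophages and neutrophils by limma's test of that difference on the log2(FPKM + 1) scale. It was larger in macrophages for Cd86 (1.96, 1.61 in macrophages and -0.35 in neutrophils) and Lgals9 (1.87, 1.20 and -0.68). It was larger in neutrophils for Havcr2 (-2.38, -0.05 and 2.33) and Icosl (-1.33, 0.32 and 1.65). The macrophage gates of tumour and WT lung differ in CD11b, so the effect in macrophages and the gate cannot be told apart. Lgals9 also differed between macrophages and monocytes (1.44), and Cd274 (1.64) and Cd86 (1.21) differed between monocytes and neutrophils. Neither of the last 2 passed without tumour monocyte replicate 4 (0.91 for Cd274 and 0.85 for Cd86). Of 16 alternatives, the call was lost in 3 for Cd274 and in 7 for Cd86, among them the omission of WT monocyte replicate 3 for both.

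In some pairs of preparations every tumour library lay on one side of the WT libraries in the first and on the other side in the second, and these differences were not tested. Icosl was higher in tumour monocytes and neutrophils and lower in tumour total lung cells, with effects that differed by 1.33 and 2.20. Lgals9 was lower in tumour monocytes and neutrophils and higher in tumour epithelial cells, by -1.34 and -1.77, and higher in tumour total lung cells, by -0.73 and -1.17.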

How the results depend on the processing

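Over 96 results for single genes and 1230 alternative values, 1112 kept direction and side of the threshold, 45 lost the call, 39 gained it and 34 turned sign. Of 50 calls 37 were kept in all alternatives run, and of 17 tumour against WT calls 13. The cause of each change was not tested. In monocytes the fit of all 10 groups called 3 genes, and leaving out single libraries gave 0 to 3, with 3 without tumour replicate 5. The same 2 alternatives called 1074 and 310 of all genes, and no other called any. Where an omission left 1 library in a group, it was assumed to vary like the others. In epithelial cells, where 2 were called, no filter and a filter of 5 FPKM left 1, the replicate block 0, and single omissions 0 to 2. The block called 6 in macrophages, 4 in neutrophils and 5 in total lung cells. It ended the calls on Havcr2 (1.85) and Lgals9 (1.02) in epithelial cells and on Icosl (-0.46) and Lgals9 (0.33) in total lung cells, and gave calls on Icosl (0.60) and Pdcd1lg2 (1.50) in macrophages. Replicate numbers were shared by 2 pairs of libraries in each of macrophages, neutrophils, epithelial and total lung cells. A library whose number was not shared does not enter the block's estimate. In macrophages the block therefore gives the same differences as the omission of tumour replicate 3 and is not a separate check. No paired analysis was possible in monocytes because a single number was shared. The numbers run on across the preparations of each kind of lung, and the labels do not say whether they pair libraries. Deviations of same-numbered libraries from their group means correlated at -0.17 to 0.08. With groups of 2 or 3 libraries such values cannot settle it. Between tumour macrophages and tumour monocytes a pseudocount of 0.1 called 1 gene and omissions 1 to 3. Upper-quartile scaling called 7 and quantile normalization 5 between tumour macrophages and neutrophils, and upper-quartile scaling 7 between tumour monocytes and neutrophils. Of all genes, these settings called 7666, 7559 and 6687. Counts under the alternatives, the block included, show how calls moved, and nothing particular to these genes as a group is read from them. For the difference of effects between macrophages and monocytes, a pseudocount of 5 and both scalings called 2, and omissions 1 to 3. Between monocytes and neutrophils a pseudocount of 0.1 called 1, and omissions 0 to 3.

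Signs turned under quantile normalization for Cd274 in neutrophils (0.36), Cd86 between WT macrophages and neutrophils (-0.037), Cd80 in the difference of effects between macrophages and neutrophils (-0.10) and Lgals9 in that between monocytes and neutrophils (-0.048). Under upper-quartile scaling and quantile normalization they turned for Icosl between tumour macrophages and monocytes (0.0082 and 0.0016), Havcr2 (-0.70 and -0.29) and Lgals9 (-0.62 and -0.070) between tumour macrophages and neutrophils, and Lgals9 between tumour monocytes and neutrophils (-0.59 and -0.016). A pseudocount of 5 turned Pdcd1lg2 in the difference between macrophages and monocytes (0.20). Leaving out single libraries gave -0.18 to 0.15 for Cd274 and -0.12 to 0.13 for Pdcd1lg2 in neutrophils, and -0.51 to 0.0088 for Icosl in epithelial cells. Between tumour macrophages and monocytes it gave -1.63 to 0.35 for Cd80, -0.019 to 0.96 for Havcr2, -0.23 to 0.27 for Icosl and -0.12 to 0.012 for Lgals9. Against tumour neutrophils it gave -0.029 to 0.17 for Havcr2 and -0.37 to 0.37 for Pdcd1lg2 in macrophages, and -0.89 to 0.10 for Havcr2 in monocytes. Between WT macrophages and monocytes it gave -0.61 to 0.11 for Cd80 and -0.43 to 0.033 for Cd86. For differences of effects between macrophages and monocytes it gave -1.33 to 0.15 for Cd274, -1.37 to 0.61 for Cd80 and -0.56 to 0.31 for Pdcd1lg2, and between monocytes and neutrophils -0.36 to 1.62 for Cd80. Groups of 2 or 3 libraries limit all of these values. The table holds no counts, so depth limits low genes such as Ido1 in a way that could not be put into an interval.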
